A study of Drosophila melanogaster with 8 samples.

Results

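Drosophila melanogaster larvae that lacked 1 or the other of 2 RNAs of the minor spliceosome were compared by whole-larva RNA sequencing, to ask which genes differed in level between the 2 strains. The comparison used 4 of the 8 libraries of the series. They were 2 libraries of larvae homozygous for a deletion of the U12 small nuclear RNA gene (U12-delta/delta, written U12Δ/Δ here) and 2 of larvae homozygous for a deletion of the U6atac gene (U6atac-delta/delta, U6atacΔ/Δ). All 4 were chosen by their labels alone. The other libraries were 2 of wild-type w1118 larvae, which are given as background, and 2 of Smn-delta/delta larvae, which entered only the estimate of the spread between replicates. Each library was made from pooled whole larvae at the third instar, the last larval stage. Both deletions were made with a pair of guide RNAs each, injected into embryos of a nanos-Cas9 line, in which Cas9 is active in the germline. The alleles were then backcrossed to w1118 and kept over GFP balancers, so each strain is 1 allele and differs from the other at both loci. The labels do not say whether the 2 libraries of a strain came from separate crosses, so p-values measure only the spread between these samples.

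The minor spliceosome removes a small class of introns, the U12-type introns, which carry a longer and more constant 5′ splice site and branch site than other introns. U12 snRNA pairs with the branch site early in the reaction. U6atac pairs with the 5′ splice site when U11 leaves, and forms part of the catalytic core. Both are therefore needed to splice the same introns, and in flies loss of either is lethal before adulthood. In whole larvae, a lower level of a gene can come from fewer cells of a type or from less of its RNA per cell, and these cannot be told apart here.

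The guide RNA target sequences are shown because they define the 2 alleles. They are written 5′ to 3′, without the PAM, as the study lists them, with U12 on chromosome arm 3L and U6atac on 2L.
U12 guide 1: ctctaaagctttctcacgca
U12 guide 2: gcgtcgctatgattcccaac
U6atac guide 1: tgtcgtcaatgtcacgttgc
U6atac guide 2: gaacacataaacggtcggct
U6atac guide 2 lies within the stretch that the study's northern probe for U6atac covers, so that cut falls inside the snRNA.

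The introns both RNAs act on are shown for 4 host genes, 2 whose level was lower in both U12Δ/Δ libraries than in both U6atacΔ/Δ libraries (Zdhhc8 and Naa60) and 2 whose level was higher (Nhe3 and Lsm12a). For each, the first 20 and the last 30 bases of the intron on the transcribed strand are given. Capitals mark ATCCT at bases 3 to 7, the core of the U12-type 5′ splice site, and TTAAC in the last 30 bases, the core of the branch site that U12 pairs with.
Zdhhc8 5′ end: gtATCCTtttgccaaaacag
Zdhhc8 3′ end: ggtttgacTTAACcctctatccgtatatag
Naa60 5′ end: atATCCTttttcaaaatatc
Naa60 3′ end: tttggttgccctcTTAACtctctactgcac
Nhe3 5′ end: atATCCTtttcaaagattaa
Nhe3 3′ end: tgctaatgacttccTTAACtcccaccgcac
Lsm12a 5′ end: gtATCCTtttgcaacgaaat
Lsm12a 3′ end: tgctcttctcttccctttccaaccgcatag
In dm6 coordinates the introns are chrX:9337893-9338052 (minus strand), chr3L:9728615-9728712 (plus), chr2L:6681773-6681942 (minus) and chrX:12019326-12019627 (plus). Introns with gt and with at at their 5′ end occur among both the lower and the higher hosts. Of 15 U12-type introns with sequence, 15 held ATCCT at these bases and 11 (73.3%) held TTAAC in the last 30. Of 48 introns that the study calls sensitive to both deletions but not U12-type, 0 held ATCCT there and 4 (8.33%) held TTAAC. The study states that most known U12-type introns were predicted from consensus sequences. The motif counts are therefore not independent of how the 2 classes were made. Only the transcribed strand was searched, and the 2 motifs do not overlap.

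The values are TPM, a length-corrected share of transcripts scaled so that each library sums to 1000000, and TPM do not carry the depth in reads. The read totals that the study lists for each library were not used here. Of 17473 genes, 9975 had a mean of at least 1 TPM over the 4 libraries and were tested. The 2 libraries of a strain were not closer to each other than to the other strain, except in U6atacΔ/Δ. Spearman's rho across the tested genes was 0.598 within U12Δ/Δ, 0.676 within U6atacΔ/Δ and 0.600 to 0.619 between the strains. Genes at 0 TPM numbered 3443 and 3353 in the U12Δ/Δ libraries and 3680 and 3521 in the U6atacΔ/Δ libraries. The 10 highest genes took 35.0% and 26.3% of the U12Δ/Δ values and 22.3% and 20.5% of the U6atacΔ/Δ values. In U12Δ/Δ library 1 the highest gene was Sgs7, a salivary glue gene, at 116541 TPM.

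**Figure D1:**
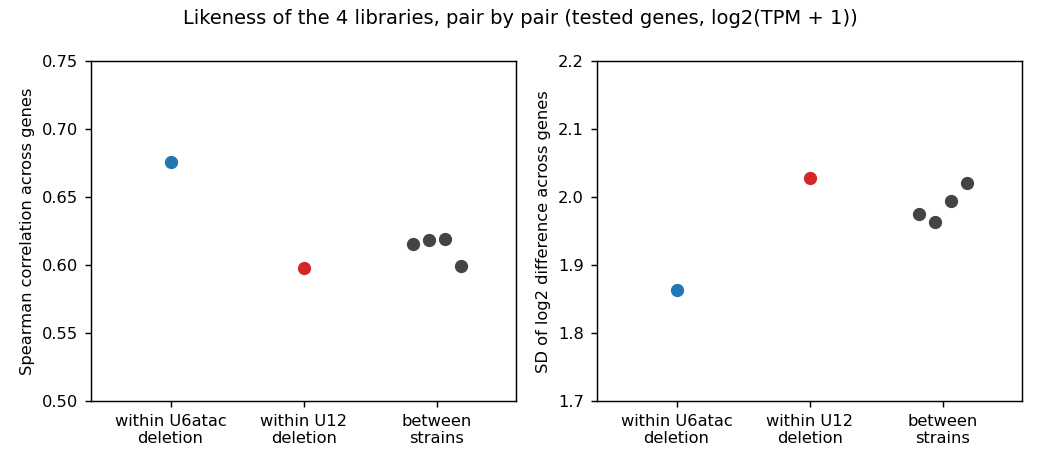
For each pair of the 4 libraries, Spearman's rho (left) and the SD of the log2 difference (right) across the tested genes; each point is 1 pair, and the axes do not start at 0. The pair within U12Δ/Δ (rho 0.598, SD 2.03) is no closer than the pairs between the strains (0.600 to 0.619, SD 1.96 to 2.02), and the pair within U6atacΔ/Δ is the closest (0.676, SD 1.86).

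Differences between libraries were shared by genes in neighbouring rows of the deposited tables. Across tested genes in adjacent rows, the log2 differences correlated with r = 0.51 for U12Δ/Δ minus U6atacΔ/Δ, and also 0.51 between the 2 U12Δ/Δ libraries and 0.51 between the 2 U6atacΔ/Δ libraries. These are correlations across genes, which share libraries and are not independent. Adjacent rows on different chromosome arms (1522 pairs) gave 0.340, 0.282 and 0.328. Genes whose starts lay under 20 kb apart but more than 100 rows apart (2667 pairs) gave 0.011, 0.026 and 0.007. Closeness on the chromosome without closeness in the rows thus showed almost no sharing. Genes with starts under 20 kb apart and at most 2 rows apart (2642 pairs) gave 0.549, 0.581 and 0.556, above adjacent rows on different arms. Blocks of 50 tested genes had median differences between the strains from -3.0 to 2.24, and those within U12Δ/Δ ran from -4.59 to 4.74. The sharing was weak in 8 of 20 segments of the table, in which the adjacent-row correlation was under 0.25 within each strain. These segments hold 3975 genes and are called the steady rows; the other 6000 genes are the other rows. The steady rows were chosen from the spread within strains after the data were seen. In them Spearman's rho was 0.730 within U12Δ/Δ, 0.784 within U6atacΔ/Δ and 0.731 to 0.763 between the strains, against 0.530, 0.618 and 0.529 to 0.558 in the other rows. The part that this row order plays in the results below was not tested. Whether a value in the other rows belongs wholly to the gene named in its row could not be checked from the tables, and every level and difference printed for such a gene carries this limit. For the 24 genes named first, the median difference of the 10 row neighbours or a place in the steady rows is given.

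**Figure D2:**
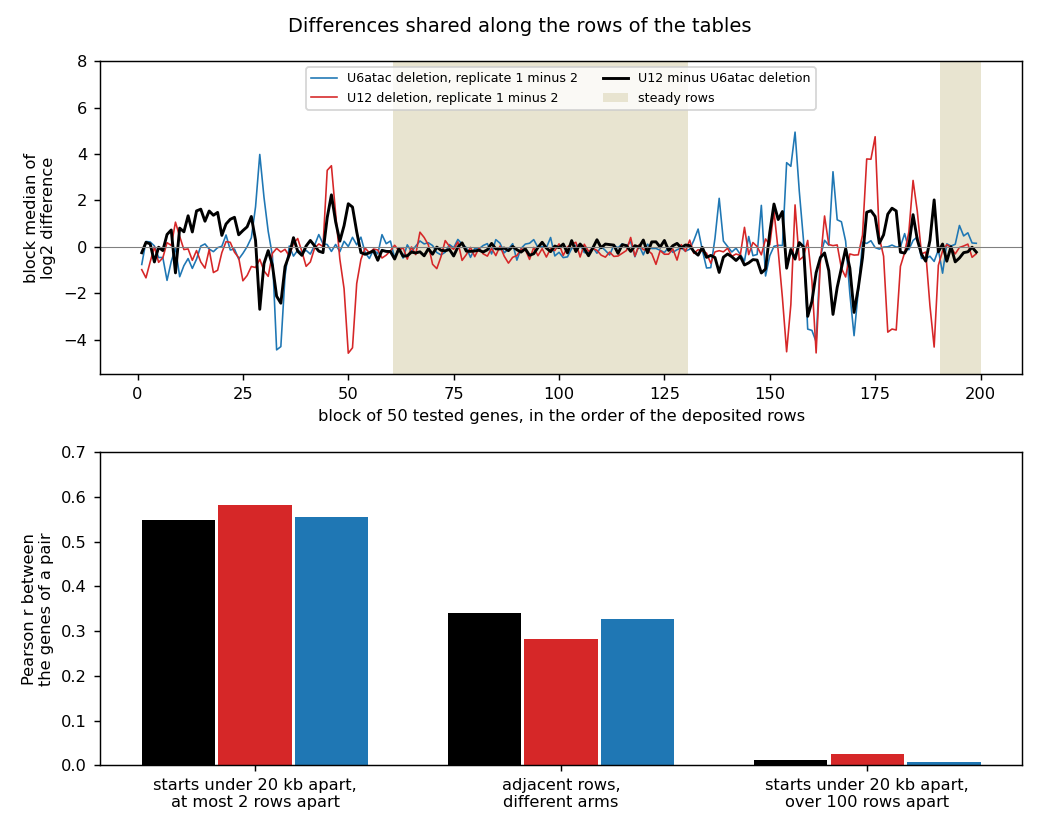
Top, median log2 difference in blocks of 50 tested genes along the row order of the deposited tables, for U12Δ/Δ minus U6atacΔ/Δ (black) and replicate 1 minus 2 within U12Δ/Δ (red) and U6atacΔ/Δ (blue), with the steady rows shaded; bottom, Pearson's r of the same differences (same colours) between the genes of pairs near or far in the table. Excursions of several log2 units lie in the unshaded rows in all 3 lines, and r is near 0 for genes close on the chromosome but over 100 rows apart.

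Over the whole table, no gene differed between the strains past the threshold. With limma, 0 of 9975 genes had an adjusted p under 0.05 in either direction (0%), the smallest adjusted p was 0.708, and 596 genes (5.97%) had an unadjusted p under 0.05. Of these, 273 (2.74%) were higher and 323 (3.24%) were lower in U12Δ/Δ. Both U12Δ/Δ libraries lay above both U6atacΔ/Δ libraries for 1710 genes (17.1%) and below both for 1866 genes (18.7%). Differences were nevertheless large: 4316 genes (43.3%) differed by at least 1 on the log2(TPM + 1) scale, and the 10th and 90th percentiles were -1.78 and 1.71. The median difference was -0.05, and the median standard error of a difference was 1.11, larger than the median absolute difference of 0.847. A fold change on the log2(TPM + 1) scale understates the change of low genes.

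Restricting the fit to the steady rows gave 3 of 3975 genes with an adjusted p under 0.05: 2 lower in U12Δ/Δ (0.0503%), Mal-A6 and Cyp6w1, and 1 higher (0.0252%), Alp7. This fit was added after the data were seen. In it 164 genes (4.13%) were lower and 57 (1.43%) higher at an unadjusted p under 0.05. The steady rows were chosen on the same replicate differences that set the error term, so the p-values of this fit are not independent of that choice. Across the steady rows the SD of the difference between replicates was 1.40 in U12Δ/Δ and 1.24 in U6atacΔ/Δ. In the other rows it was 2.35 and 2.18. The fit of the other rows gave 0 genes, with a smallest adjusted p of 0.731.

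Mal-A6, a maltase that cleaves maltose to glucose in the gut (chr2R:8465158-8467595, plus strand), had 531 and 94.3 TPM in the U6atacΔ/Δ libraries and 4.83 and 2.56 in the U12Δ/Δ libraries. The groups did not overlap, and the wild-type libraries, at 16.5 and 5.09 TPM, lay between them. The log2 difference was -5.63 (SE 1.26, n = 2 and 2), with a limma adjusted p of 0.808 over all tested genes and 0.0289 over the steady rows. Its 10 row neighbours had a median difference of -1.22. Cyp6w1, a cytochrome P450 oxidase (chr2R:6173684-6176195, plus strand), had 161 and 193 TPM in U6atacΔ/Δ and 3.32 and 4.30 in U12Δ/Δ. The 2 libraries of each strain were close to each other, and wild type had 19.1 and 6.22 TPM. The log2 difference was -5.21 (SE 1.14), and its row neighbours had a median near 0, at -0.00648. Alp7, an alkaline phosphatase (chr2R:22203694-22205593, minus strand), had 0.728 and 0.939 TPM in U6atacΔ/Δ and 27.3 and 76.8 in U12Δ/Δ. Here it was U6atacΔ/Δ that stood apart from wild type, which had 107 and 47.5 TPM. The log2 difference was 4.68 (SE 0.96), and the median of its row neighbours was 0.65.

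In the whole table, the places for named genes went to the 12 genes in each direction with the smallest unadjusted p, no overlap between the strains and at least 10 TPM in the higher strain. None of the 24 passed the test. Their adjusted p was 0.708 for CG13560 and 0.808 for the other 23. The 12 higher genes had log2 differences from 2.99 to 7.85, and the 12 lower genes differences of 3.42 to 6.33 in absolute size. The 10 row neighbours had a median of the same sign for 12 of the 12 higher genes and 11 of the 12 lower genes. Only Alp7 among the higher, and Cyp6w1, Mal-A6 and CG34026 among the lower, lay in the steady rows. Against wild type, both U12Δ/Δ libraries were above both w1118 libraries for 9 of the 12 higher genes, and both U6atacΔ/Δ libraries were below both for 10. For the 12 lower genes, both U6atacΔ/Δ libraries were above both wild-type libraries in 11 cases and both U12Δ/Δ libraries below in 8. The rule that chose the 24 genes makes such positions likely, and no share over all tested genes is given for them. In each direction 5 of the 12 overlap another annotated gene, and the library kit does not mark strand, so reads of overlapping genes cannot be told apart.

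**Figure D3:**
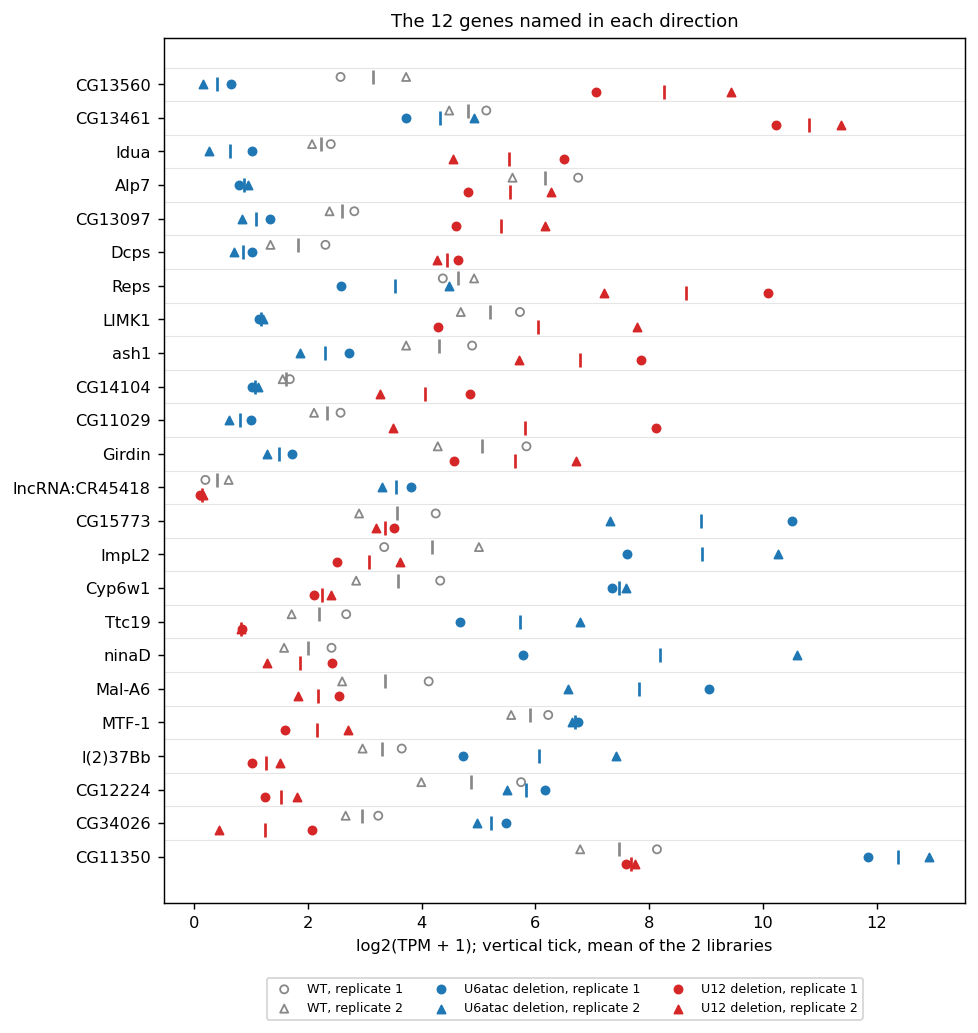
log2(TPM + 1) of the 24 named genes in each library of wild type, U6atacΔ/Δ and U12Δ/Δ, with a tick at each group's mean. The U12Δ/Δ and U6atacΔ/Δ points do not overlap for any of the 24, which the rule that chose them required. Both U12Δ/Δ points lie above both wild-type points for 9 of the 12 higher genes and below both for 8 of the 12 lower genes.

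The gene with the largest difference among those higher in U12Δ/Δ was CG13560 (chr2R:23747560-23748477, plus strand), a gene named by its number alone. It had 0.565 and 0.118 TPM in U6atacΔ/Δ, 133 and 695 in U12Δ/Δ, and 4.97 and 12.3 in wild type. Its log2 difference was 7.85 (SE 1.19, limma unadjusted p 7.09e-05), and the median of its row neighbours was 0.08. When each gene's log2 value was centred on the 10 tested genes around it in the table, CG13560 was the 1 gene called, with an adjusted p of 0.0288 by limma. CG13461 (chr3L:15051931-15052490, minus strand) had 12.3 and 29.2 TPM in U6atacΔ/Δ and 1196 and 2659 in U12Δ/Δ, against 34.2 and 21.4 in wild type. The U6atacΔ/Δ values lay close to wild type and the U12Δ/Δ values far above, a log2 difference of 6.48 (SE 1.19) with row neighbours at a median of 1.59.

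The other higher genes have unlike roles. Dcps, the scavenger enzyme that hydrolyses the cap left after mRNA decay, had 1.04 and 0.63 TPM in U6atacΔ/Δ and 23.9 and 18.2 in U12Δ/Δ. Wild type had 3.96 and 1.54 TPM, below the U12Δ/Δ libraries, and the log2 difference was 3.59 (SE 0.80), with row neighbours at 1.79. For ash1, a histone H3 methyltransferase of the trithorax group, the values were 5.62 and 2.65 TPM in U6atacΔ/Δ and 231 and 51.5 in U12Δ/Δ, with row neighbours at 1.87. LIMK1, the kinase that phosphorylates cofilin and so stabilises actin filaments, had 1.22 and 1.31 TPM in U6atacΔ/Δ and 18.7 and 219 in U12Δ/Δ. Girdin, an actin-binding protein, had 2.29 and 1.44 TPM in U6atacΔ/Δ and 22.7 and 105 in U12Δ/Δ. LIMK1 and Girdin are on different arms (X and 3L) but in adjacent rows, and their row neighbours had medians of 2.12 and 2.16. Wild type, at 52.1 and 24.8 TPM for LIMK1 and 56.4 and 18.5 for Girdin, overlapped U12Δ/Δ for both. Idua, a lysosomal enzyme that breaks down glycosaminoglycans, and Reps, an Eps15-domain protein of endocytosis, also sit in adjacent rows. Idua had 1.03 and 0.198 TPM in U6atacΔ/Δ and 90.1 and 22.5 in U12Δ/Δ, with row neighbours at 1.88. Reps had 4.98 and 21.4 TPM in U6atacΔ/Δ and 1092 and 146 in U12Δ/Δ, with a median of 1.91 over its row neighbours. The remaining higher genes, CG13097, CG14104 and CG11029, had log2 differences of 4.30, 2.99 and 5.0, and their row neighbours had medians of 1.58, 1.88 and 1.53.

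The lower genes likewise had unlike roles. ImpL2, a secreted protein that binds insulin-like peptides and restrains growth, had 193 and 1223 TPM in U6atacΔ/Δ and 4.74 and 11.3 in U12Δ/Δ. Wild type, at 9.16 and 31.2 TPM, overlapped U12Δ/Δ, so U6atacΔ/Δ was the strain that stood apart; the log2 difference was -5.86 (SE 1.28), beside a row-neighbour median of -1.96. MTF-1, the transcription factor that induces metallothioneins, had 107 and 98.9 TPM in U6atacΔ/Δ and 2.04 and 5.51 in U12Δ/Δ, with 73.9 and 46.7 in wild type. For MTF-1 it was U12Δ/Δ that lay far from wild type, with a log2 difference of -4.54 (SE 1.02) and row neighbours at -0.68. ninaD, a scavenger receptor for carotenoid uptake, had 53.9 and 1545 TPM in U6atacΔ/Δ and 4.41 and 1.44 in U12Δ/Δ. Its U6atacΔ/Δ libraries differed greatly from each other, wild type had 4.35 and 2.0 TPM, and its row neighbours had a median of -1.99. Ttc19, which serves the assembly of respiratory complex III, had 24.7 and 109.8 TPM in U6atacΔ/Δ and 0.790 and 0.764 in U12Δ/Δ. Its row neighbour l(2)37Bb had 25.4 and 169.7 TPM in U6atacΔ/Δ and 1.03 and 1.86 in U12Δ/Δ, and both sat among rows with medians of -2.88 and -2.70. CG11350 had 3666 and 7738 TPM in U6atacΔ/Δ and 193 and 215 in U12Δ/Δ, but its row neighbours had a median of -3.94, near its own difference of -4.70. CG34026 had 43.5 and 30.4 TPM in U6atacΔ/Δ and 3.21 and 0.356 in U12Δ/Δ. It is the 1 lower gene whose row neighbours had a median of the other sign, at 0.29, against its own difference of -3.97. The remaining lower genes, CG15773, CG12224 and lncRNA:CR45418, had log2 differences of -5.55, -4.30 and -3.42, and their row neighbours had medians of -2.23, -0.74 and -1.05.

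Among the gene lists, the largest absolute median lay in the digestive enzymes of the midgut, the trypsins, Jonah proteases, amylases, maltases and lysozymes that gut cells secrete to break down food. Of 21 listed genes 20 were tested, and both U12Δ/Δ libraries lay below both U6atacΔ/Δ libraries for 11 of the 20 and above both for 0, against 18.7% and 17.1% of all tested genes. The median log2 difference was -2.32, against -0.05 over all tested genes. At an unadjusted p under 0.05, 6 members were lower, where 3.24% of all tested genes were. None passed the adjusted test over the whole table. Most of these genes, 18, lie in the steady rows. There 10 of 18 were lower without overlap, where 20.2% of the steady-row genes were, and their median was -2.20. Taken against the surrounding genes outside the list, the median was -1.91. Leaving out either library of either strain gave 13 to 15 of the 20 lower without overlap, where 32.7% to 39.9% of all genes were lower in the same sense.

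Among trypsins, alphaTry had 1094 and 668 TPM in U6atacΔ/Δ and 106 and 30.4 in U12Δ/Δ, with 129 and 47.1 in wild type. Its log2 difference was -3.88 (SE 1.23, limma unadjusted p 0.0109), and its U12Δ/Δ values overlapped those of wild type. thetaTry had 90.1 and 49.4 TPM in U6atacΔ/Δ and 10.2 and 6.26 in U12Δ/Δ, and here wild type, at 58.2 and 77.9, was near U6atacΔ/Δ. iotaTry had 120.2 and 81.1 TPM in U6atacΔ/Δ and 7.39 and 11.1 in U12Δ/Δ. In gammaTry the strains overlapped, with 86.1 and 94.1 TPM in U6atacΔ/Δ and 73.9 and 87.4 in U12Δ/Δ, and deltaTry overlapped too. Mal-A1, a second maltase, had 65.8 and 266 TPM in U6atacΔ/Δ and 26.7 and 9.58 in U12Δ/Δ, a log2 difference of -2.96 (SE 1.13). Among the Jonah proteases, chymotrypsin-like enzymes of the larval gut, Jon65Aiv had 3826 and 16500.4 TPM in U6atacΔ/Δ and 2530.3 and 1163 in U12Δ/Δ. Jon99Fi and Jon99Ciii were also lower without overlap, whereas Jon25Bi had 392 and 645 TPM in U6atacΔ/Δ and 791 and 361 in U12Δ/Δ. The amylases, which cleave starch, showed no common direction: Amy-p had 414 and 414 TPM in U6atacΔ/Δ and 1358 and 111 in U12Δ/Δ. LysB, a digestive lysozyme, had 10.9 and 74.3 TPM in U6atacΔ/Δ and 2.0 and 0.875 in U12Δ/Δ. Trypsin, amylase and lysozyme genes are near-identical copies within their clusters, so reads may have been split among them and single members are uncertain. The mean log2(TPM + 1) of the list was 8.25 and 8.50 in U6atacΔ/Δ, 6.86 and 5.97 in U12Δ/Δ, and 7.98 and 6.66 in wild type, so the wild-type libraries spanned part of the gap.

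**Figure D4:**
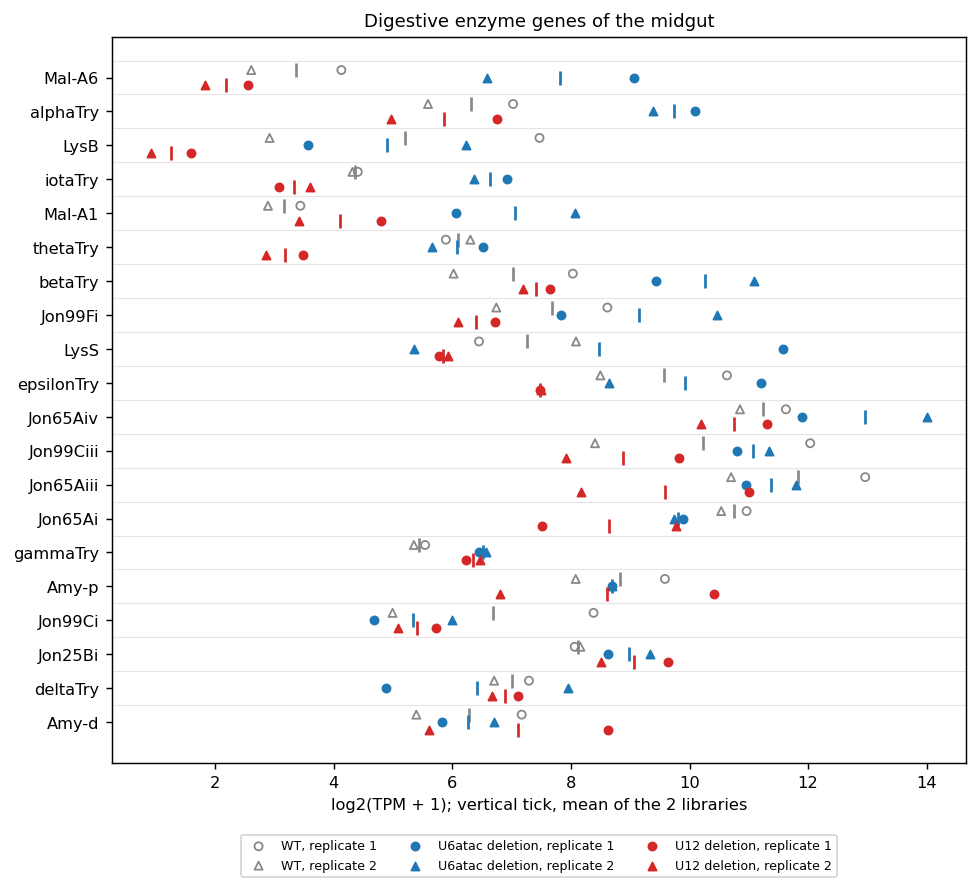
log2(TPM + 1) of the 20 tested digestive enzyme genes in each library of wild type, U6atacΔ/Δ and U12Δ/Δ, with ticks at the group means. Both U12Δ/Δ points lie left of both U6atacΔ/Δ points for 11 of the 20, and the wild-type points are spread over both.

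Other genes of gut function and metabolism were among those with the smallest p in the steady-row fit; they were chosen after their values were seen, and none of them passed the adjusted test. Muc55B, a mucin, had 1584 and 2442 TPM in U6atacΔ/Δ and 61.6 and 13.7 in U12Δ/Δ, a log2 difference of -6.02 with a limma adjusted p of 0.0636 in that fit. Wild type had 80.7 and 3.34 TPM and overlapped U12Δ/Δ. Adh, the alcohol dehydrogenase, had 11.7 and 6.85 TPM in U6atacΔ/Δ and 0.744 and 0.369 in U12Δ/Δ. Npc1b, a transporter for dietary sterol in the midgut, had 94.9 and 22.3 TPM in U6atacΔ/Δ and 4.88 and 2.47 in U12Δ/Δ. The acyl-CoA-binding proteins Acbp6 and Acbp2 had 2059 and 1359.7 TPM and 391 and 173 TPM in U6atacΔ/Δ. In U12Δ/Δ Acbp6 had 161 and 50.2 TPM and Acbp2 had 30.2 and 14.0. In wild type Acbp2, at 199 and 83.6 TPM, lay nearer to U6atacΔ/Δ than to U12Δ/Δ. Hex-C, a hexokinase, had 39.2 and 4.83 TPM in U6atacΔ/Δ and 0.505 and 1.39 in U12Δ/Δ. Glycolysis genes as a list had a median of -0.76 over 13 tested, with 4 lower and 0 higher without overlap, where 18.7% and 17.1% of all tested genes were. Against the surrounding genes outside the list the median was -1.26. The list's mean log2(TPM + 1) was 8.30 and 8.99 in U6atacΔ/Δ and 7.07 and 8.37 in U12Δ/Δ, so U12Δ/Δ library 2 overlapped U6atacΔ/Δ. Among the lower members, Ldh, lactate dehydrogenase, had 880.3 and 806 TPM in U6atacΔ/Δ and 122 and 278 in U12Δ/Δ. The wild-type libraries, at 624 and 424 TPM, lay between.

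The genes that host a U12-type intron, whose splicing needs both deleted RNAs, showed no common direction. All 19 listed hosts were tested. Their median log2 difference was -0.07, with 3 higher and 5 lower without overlap, where 17.1% and 18.7% of all tested genes were. These counts are near the shares over all genes, 0 hosts had an unadjusted p under 0.05, and the median against the surrounding genes was 0.17. A gene-level TPM adds reads over exons and does not measure whether the intron was spliced. The lower hosts were Zdhhc8, a palmitoyltransferase, Naa60, an N-terminal acetyltransferase, Ca-alpha1T, a T-type calcium channel, Sf3a1, a component of the U2 snRNP, and Epac, an exchange factor activated by cAMP. Zdhhc8 had 88.5 and 53.9 TPM in U6atacΔ/Δ and 15.1 and 24.8 in U12Δ/Δ, with 27.2 and 19.2 in wild type, and its log2 difference was -1.78 (SE 0.99, limma unadjusted p 0.103). Naa60 had 14.6 and 30.3 TPM in U6atacΔ/Δ and 4.68 and 9.52 in U12Δ/Δ, and wild type, at 4.24 and 6.85, overlapped U12Δ/Δ. Sf3a1 had 77.6 and 87.7 TPM in U6atacΔ/Δ and 18.2 and 60.7 in U12Δ/Δ, both above the 7.72 and 4.35 TPM of wild type. The higher hosts were Lsm12a, Nhe3, a sodium/hydrogen exchanger, and stas. Nhe3 had 21.1 and 42.5 TPM in U6atacΔ/Δ and 44.9 and 180.4 in U12Δ/Δ, so the nearest libraries of the strains were almost equal. Lsm12a had 5.18 and 31.8 TPM in U6atacΔ/Δ and 45.7 and 58.3 in U12Δ/Δ, a log2 difference of 1.89 (SE 1.24, limma unadjusted p 0.16). pros, a homeodomain factor of neural differentiation and the host of a U12-type intron, overlapped between the strains, with 29 and 5.22 TPM in U6atacΔ/Δ and 13.4 and 20.3 in U12Δ/Δ. Of the 4 introns shown above, only that of Lsm12a lacks the TTAAC motif. Intron sequence was at hand for 15 of the 19 hosts, and Ca-alpha1T was not among them. Of the 15, the 4 whose intron lacks the motif were Lsm12a and stas, which were higher, and pros and nmo, which overlapped between the strains. Whether the motif goes with the direction was not tested.

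**Figure D5:**
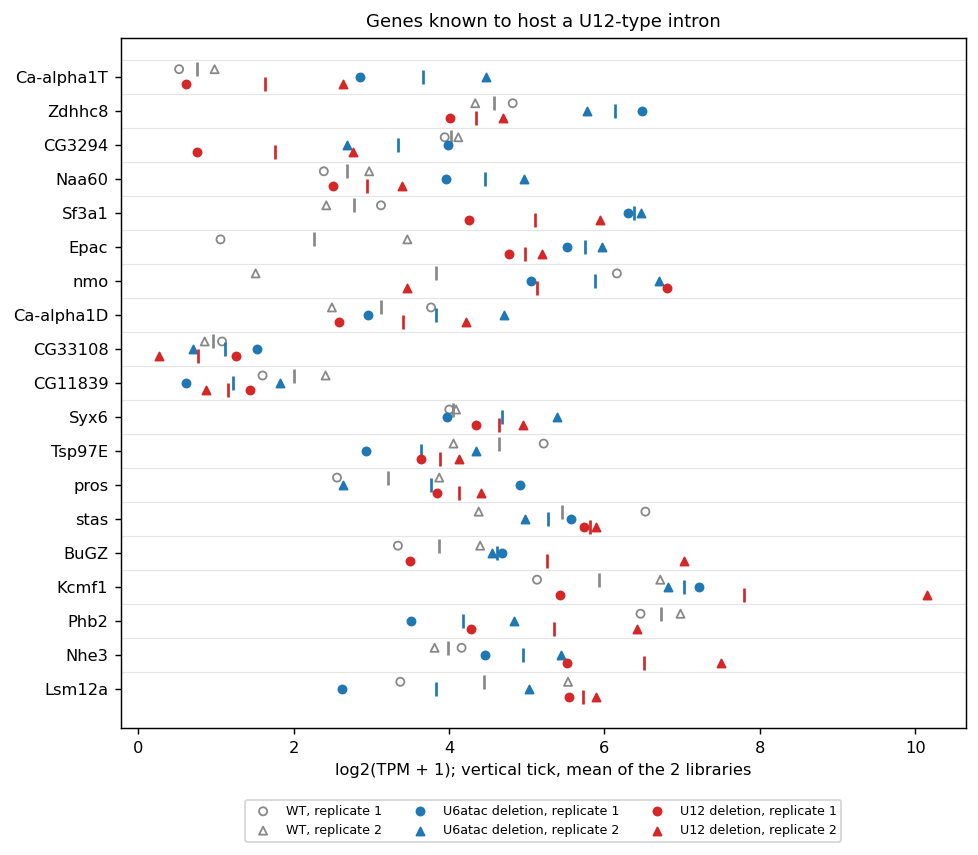
log2(TPM + 1) of the 19 hosts of U12-type introns in each library of wild type, U6atacΔ/Δ and U12Δ/Δ, with ticks at the group means, ordered by the difference between the deletion strains. The strains overlap for 11 of the 19, and Kcmf1 and BuGZ are far apart between the 2 U12Δ/Δ libraries.

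The introns that the study calls sensitive to both deletions without being U12-type lie in 46 host genes, of which 36 were tested. The study chose them on these samples, so the list is not independent evidence of a direction. Their median difference was 0.08, with 11 higher and 9 lower without overlap, against 17.1% and 18.7% of all tested genes. At an unadjusted p under 0.05 there were 4 higher and 1 lower, against 2.74% and 3.24% of all tested genes, and none passed the adjusted test. mnd, an amino acid transporter, had 5.25 and 1.38 TPM in U6atacΔ/Δ and 31.2 and 371 in U12Δ/Δ, and its row neighbours had a median of 2.07. HipHop, a telomere capping protein, had 1.39 and 0.269 TPM in U6atacΔ/Δ and 15.1 and 12.6 in U12Δ/Δ, with 1.58 and 25.2 in wild type. CG15695 had 13.4 and 7.25 TPM in U6atacΔ/Δ and 1.32 and 1.79 in U12Δ/Δ, a log2 difference of -2.10 (SE 0.79).

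The neural candidates of the study, also chosen on these samples, had a median of -0.11 over 18 tested genes, with 5 higher and 4 lower without overlap. The shares of all tested genes, to be read beside this and the next 2 lists, were 17.1% higher and 18.7% lower. Against the surrounding genes outside the list the median was 0.38, of the other sign. Pde1c, a phosphodiesterase that degrades cyclic nucleotides, had 264 and 39.4 TPM in U6atacΔ/Δ and 6.74 and 11.5 in U12Δ/Δ. Wild type, at 26.0 and 7.96 TPM, overlapped U12Δ/Δ, and the log2 difference was -3.39 (SE 1.19, limma unadjusted p 0.0177) beside row neighbours at -1.12. Plc21C, a phospholipase C, had 1.7 and 7.07 TPM in U6atacΔ/Δ and 46.4 and 21.9 in U12Δ/Δ, with 13.6 and 18.6 in wild type. Its log2 difference was 2.82 (SE 1.03, limma unadjusted p 0.0219). Fas3, an adhesion protein of synapses and septate junctions, had 11.1 and 433 TPM in U6atacΔ/Δ and 2.3 and 7.6 in U12Δ/Δ. General neuronal genes had a median of 0.40 over 12 tested, and 2 were higher and 1 lower without overlap. The lower one was Syt1, the calcium sensor of synaptic vesicle release, at 218 and 276 TPM in U6atacΔ/Δ and 47.4 and 25 in U12Δ/Δ. A list of genes of nonsense-mediated decay and the exon junction complex, which act on transcripts with early stop codons, together with the decay target Gadd45, had a median of -0.63 over 11 tested, with 4 lower and 1 higher. Against the surrounding genes outside the list the median was -0.16, and over the 6 members in the steady rows it was -0.13. No factor of the decay or the complex was higher without overlap; the higher gene was Gadd45, at 4.35 and 6.68 TPM in U6atacΔ/Δ and 23.5 and 40.6 in U12Δ/Δ. Wild type, at 7.27 and 6.34 TPM, was near U6atacΔ/Δ, and the limma unadjusted p was 0.0374 (log2 difference 2.31, SE 0.96).

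Salivary glue genes, which are switched on by ecdysone late in the third instar, separated the 2 U12Δ/Δ libraries from each other and not the strains. Their mean log2(TPM + 1) was 12.39 and 1.52 in the U12Δ/Δ libraries, 5.29 and 7.81 in U6atacΔ/Δ, and 10.66 and 9.41 in wild type. Sgs3 had 68492 and 1.96 TPM in U12Δ/Δ and 343 and 293 in U6atacΔ/Δ. Fbp1, the fat body receptor for larval serum proteins, went the same way, with 17438 and 20.5 TPM in U12Δ/Δ and 372 and 2522 in U6atacΔ/Δ. The larval serum proteins themselves did not, since Lsp1beta had 18675 and 95340.0 TPM in U12Δ/Δ. The 2 U12Δ/Δ libraries thus differed in the glue genes and Fbp1, which change with developmental time, and the part of this difference in the other results was not tested. Only 1 of the 6 glue genes lies in the steady rows. From transcriptomes, the study grouped both deletion strains with wild-type larvae of a single third-instar stage. Each list below is given against the non-overlap shares of 17.1% higher and 18.7% lower over all tested genes. Pre-glue genes (3 tested) had a median of -0.54, late fat body genes (6) -0.05, Eig71E genes (4) 1.28 (-0.52 against the surrounding genes outside the list, where the sign turned), ecdysone response genes (15) 0.33 and ecdysone synthesis genes (7) -0.31. For ecdysone response genes 3 were higher and 2 lower without overlap, and Eip78C, a nuclear receptor, had 0.340 and 0.408 TPM in U6atacΔ/Δ and 33.8 and 0.800 in U12Δ/Δ.

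Larval cuticle genes, 11 of whose 12 tested members lie in the steady rows, had a median of -0.85, with 5 lower and 0 higher without overlap. Cpr65Av, a chitin-binding cuticle protein, had 21.3 and 26.9 TPM in U6atacΔ/Δ and 1.48 and 0.740 in U12Δ/Δ, with 28.7 and 56.3 in wild type. The log2 difference was -3.58 (SE 0.99, limma unadjusted p 0.00489), and U12Δ/Δ was the strain away from wild type. Lcp3 had 5257 and 5175 TPM in U6atacΔ/Δ and 535 and 1623 in U12Δ/Δ, with 5466 and 3978 in wild type. The 2 tested pupal cuticle genes, Pcp and Cpr49Ac, lay on the other side, and Cpr49Ac had 149.8 and 142 TPM in U6atacΔ/Δ and 1652 and 186 in U12Δ/Δ.

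Heat shock genes and chaperones had a median of -1.08 over 14 tested, with 7 lower and 0 higher without overlap. Only 1 of them lies in the steady rows. Hsp60A, the mitochondrial chaperonin, had 759.9 and 3580.4 TPM in U6atacΔ/Δ and 217 and 220.4 in U12Δ/Δ, a log2 difference of -2.91 (SE 1.23, limma unadjusted p 0.0399) beside row neighbours at -2.75. Hsc70-3, the chaperone of the endoplasmic reticulum, had 2109 and 613 TPM in U6atacΔ/Δ and 454 and 117 in U12Δ/Δ. The Hsp70 copies are near-identical, and their single values are uncertain. Antimicrobial peptide genes (11 tested) had a median of 0.03. Drs, an antifungal peptide induced by the Toll pathway, had 9.23 and 7.84 TPM in U6atacΔ/Δ and 138 and 395 in U12Δ/Δ. Wild type, at 83.1 and 1183 TPM, was also high, and the log2 difference was 4.63 (SE 1.46, limma unadjusted p 0.0107) beside row neighbours at 1.83. AttA was higher in U12Δ/Δ, with 2.51 and 1.59 TPM against 0.0625 and 0.0619, while AttD was lower, with 0.0380 and 0.323 TPM against 3.45 and 4.29. In growth signalling (10 tested, median 0.34), Ilp8, the relaxin-like hormone that delays metamorphosis when tissues grow abnormally, had 0.259 and 2.12 TPM in U6atacΔ/Δ and 8.75 and 26.0 in U12Δ/Δ. Wild type had 2.93 and 0.164 TPM, and the log2 difference was 3.03 (SE 1.03, limma unadjusted p 0.0151) with row neighbours at 0.18.

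The remaining lists, apart from the SMN complex genes, stayed within 1 log2 unit of 0 in their median. They were muscle sarcomere genes (15 tested, -0.75), blood cell genes (6, -0.07), male germline genes (17, 0.09), female germline genes (2, 0.88), DNA replication genes (14, 0.36), cytosolic ribosomal protein genes (85, -0.42), mitochondrial genome genes (15, -0.70) and dosage compensation genes (7, -0.52). For the last, 3 were higher and 1 lower without overlap, and against the surrounding genes the median was 1.13, of the other sign. No Y chromosome fertility gene reached 1 TPM. lncRNA:roX1, an RNA of the male dosage compensation complex, had 98.6 and 69.5 TPM in U6atacΔ/Δ and 244 and 379 in U12Δ/Δ, with 88.3 and 37.7 in wild type. Genes on the X had a median difference of -0.42, while the other arms lay between -0.13 and 0.15. In the steady rows the X median was -0.13, beside -0.19 on 3R. For the 409 X genes with surrounding genes on another arm, the median against those was -0.03. SMN complex genes (5 tested) had a median of 1.46, or 0.47 against the surrounding genes, with no member free of overlap. Smn itself had 9.76 and 200.3 TPM in U12Δ/Δ and 14.0 and 9.57 in U6atacΔ/Δ, so its U12Δ/Δ libraries disagreed.

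The deleted genes could be checked only in part. snRNA:U12 (chr3L:16653769-16654006, plus strand) was listed at 0 and 0 TPM in the U12Δ/Δ libraries and at 0.307 and 1.33 in U6atacΔ/Δ, with 0.0724 and 0.454 in wild type. The direction was that of the label, at levels too low to be tested. snRNA:U6atac (chr2L:8389724-8389820, plus strand) was listed at 0 in all 8 libraries, so it checks nothing, and snRNA:U11 and snRNA:U4atac, the other RNAs of the minor spliceosome, were at or near 0 too. The U12 gene lies within Baldspot, a fatty acid elongase gene on the opposite strand, which had 93.3 and 25.4 TPM in U6atacΔ/Δ and 8.58 and 35.2 in U12Δ/Δ. The strains overlapped for Baldspot (log2 difference -1.42, SE 1.80). On either side lie Abl, the tyrosine kinase, with a difference of 0.10 (SE 1.03), and Galphaf, a G protein subunit, with -1.72 (SE 1.5). Without U12Δ/Δ library 1 the difference of Abl was -0.31, and without U6atacΔ/Δ library 2 it was -0.27. Within 100 kb of U12 29 genes were tested, with a median of -0.21, 4 higher and 8 lower without overlap. Over all tested genes the shares were 17.1% higher and 18.7% lower. Centred on row neighbours, the median around U12 was -0.03. Syx8, a syntaxin of endosomal fusion, had 46.0 and 77.1 TPM in U6atacΔ/Δ and 2.2 and 2.14 in U12Δ/Δ, and wild type, at 41.2 and 81.6, was close to U6atacΔ/Δ. Its log2 difference was -4.26 (SE 1.07, limma unadjusted p 0.00284), with row neighbours at -0.42. zetaCOP, a subunit of the COPI coat, had 93.4 and 33.2 TPM in U6atacΔ/Δ and 3.01 and 7.55 in U12Δ/Δ, with 72.3 and 75.3 in wild type and row neighbours at 0.07. At the U6atac locus, CG42820, on the minus strand, ends 61 bp from the snRNA gene and had a difference of -0.02 (SE 0.96). CG42819, 393 bp away on the other side, was too low to test. Within 100 kb of U6atac 44 genes were tested, and their median was 0.99. Of these 19 were higher and 2 lower without overlap, beside the same shares over all tested genes. Many of these genes sit in adjacent rows, and for those the locus and the row order cannot be told apart. The genes of this window that lie in the steady rows had smaller differences of both signs. They were Aasdh (1.36), mus201 (0.95), AlaRS (0.83), RpS13 (0.67), CSN8 (0.54), Pp2A-29B (0.22), Chrac-14 (-0.17) and wol (-0.49). The part of the locus in these values was not tested.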

How the data were processed

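The authors deposited 1 table per library of gene-level TPM, a length-corrected share of transcripts that sums to 1000000 per library, on dm6 gene models. The submitters' processing notes name TopHat2 and featureCounts. RNA was extracted from pooled larvae with TRIzol, and the NEBNext Ultra kit used does not mark strand. TPM do not carry the depth in reads and the study's read totals were not used, so no counting interval is given. No read counts were used, and no per-sample column was left out.

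Symbols came from the BDGP6.54 annotation. Genes whose mean over the 4 libraries compared reached 1 TPM were tested on log2(TPM + 1) with limma 3.58.1 in R 4.3.3. All 8 libraries in 4 groups shared 1 estimate of the spread (eBayes with trend), p-values were two-sided, and Benjamini-Hochberg adjustment ran over all tested genes with a threshold of 0.05. The fit was tested on simulated data. Named genes were the 12 per direction with the smallest p, as described in the text, the deleted loci and their neighbours, and up to 4 members of each list. The comparison, the lists and the tests were chosen with earlier results of these data known. Alternatives were other pseudocounts, filters, scalings, eBayes settings, sets of libraries, a replicate block, leaving out each library, centring on 5 tested genes on each side in the table, and windows of 50 and 250 kb around the loci. Fits of the steady rows and of the other rows were added after the data were seen. The steady rows are the segments of 500 tested genes whose adjacent-row correlation is under 0.25 within both strains.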

Additional observations from a re-analysis of the deposited data

Results flagged for a closer look

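For 14 of the 24 named genes the strains moved to opposite sides of wild type: both libraries of one deletion lay above both w1118 libraries and both libraries of the other lay below them. The difference between the 2 responses is the difference between the strains, since wild type cancels, and its limma adjusted p over all tested genes was 0.708 for CG13560 and 0.808 for the others, so none passed. The genes were chosen for a large difference between the strains and no overlap, which makes wild type likely to lie between them. No share over all tested genes is given beside this count. The 7 with U12Δ/Δ above and U6atacΔ/Δ below wild type were CG13560 (log2 difference 7.85), CG11029 (5.0), Idua (4.89), ash1 (4.49), CG13097 (4.30), Dcps (3.59) and CG14104 (2.99). The 7 with U12Δ/Δ below and U6atacΔ/Δ above wild type were Mal-A6 (-5.63), Cyp6w1 (-5.21), Ttc19 (-4.91), l(2)37Bb (-4.80), MTF-1 (-4.54), CG34026 (-3.97) and lncRNA:CR45418 (-3.42). Of the 14, Mal-A6, Cyp6w1 and CG34026 lie in the steady rows.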

How the results depend on the processing

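No setting gave a gene with an adjusted p under 0.05 except 2: centring on row neighbours (1 gene, CG13560) and the steady rows alone (3 genes). Both the restriction to 4 libraries and the one without the Smn-delta/delta libraries gave 0, as did each other filter, pseudocount, scaling and eBayes setting, with 462 to 712 genes at an unadjusted p under 0.05. Leaving out each library in turn gave 0 genes too, with 571 to 785 at an unadjusted p under 0.05. The labels do not say whether same-numbered libraries are paired. The deviations of same-numbered libraries correlated at -0.021 across the tested genes. This cannot decide it, because the differences between replicates were shared along the row order. With the replicate block in the limma fit 0 genes passed, 652 had an unadjusted p under 0.05, and the smallest adjusted p was 0.739. The median around U12 was -0.70 within 50 kb and 0.29 within 250 kb, and -0.457 to -0.0175 when 1 library was left out; that around U6atac was -0.0503 after centring, which brings it near 0 by construction because many of its genes are each other's row neighbours. With 1 library left out, the sign turned without U12Δ/Δ library 2 for Smn (-0.23 to 4.0005), and without U12Δ/Δ library 1 or U6atacΔ/Δ library 2 for Abl (-0.31 and -0.27, up to 0.50) and CG42820 (0.92 and 0.75, down to -0.96). The cause of these turns was not tested. The median standard error of a difference, 1.11 on the log2 scale, limits what could be called.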

Other observations

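Some gene families were picked by symbol after their values were seen, and they are given with counts and no test; 17.1% of all tested genes were higher and 18.7% lower without overlap. Maltase genes, of which all tested except Mal-B2 form a cluster on chromosome arm 2R, had a median log2 difference of -1.83 over 9 tested, with 6 lower without overlap and 1, Mal-B2 on arm 2L, higher. The clustered maltase genes also sit in adjacent rows, and against the surrounding genes outside the family the median was -1.16. Mal-A1 and Mal-A6 were already in the digestive enzyme list. UDP-glycosyltransferase genes, which conjugate sugars to small molecules, had a median of -1.42 over 26 tested, with 8 lower and 2 higher. Cytochrome P450 genes, which oxidise hormones and xenobiotics, had a median of -0.56 over 72 tested, with 19 lower and 8 higher. The Jonah protease family as a whole had a median of -1.42 over 16 tested, with 6 lower and 0 higher, and -1.36 against the surrounding genes. Several of its members were already in the digestive enzyme list. Neprilysin-like genes had a median of 0.74 over 15 tested, with 2 higher and 1 lower, no larger a share than over all genes. Delta class glutathione S-transferase genes had 0.90 over 10, with 1 higher and 0 lower, and -0.50 against the surrounding genes outside the family, where the sign turned. Proteasome genes had medians of 0.59 for the ATPases of the regulatory particle (9 tested) and 0.51 for the beta subunits (11 tested). Serpin genes (16 tested) had a median of 0.09, which was -0.45 against the surrounding genes, and 5 Osiris genes one of -0.57.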
